A study of Mus musculus with 12 samples.

Results

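The cholesterol synthesis, SREBP and LXR genes are 34 genes that were chosen by name: the enzymes that make cholesterol from acetyl-CoA, the regulators of the SREBP transcription factors, the LXR nuclear receptors with genes of sterol transport, efflux and receptor turnover, and 4 genes of fatty acid synthesis and desaturation. All 34 are among the 18903 genes counted, and all 34 passed the filter on low counts, which left 17938 genes for testing. They were followed by RNA-seq in astrocytes grown from the brains of mice at postnatal day 1 (P1), P6 and P8. The 12 libraries fall into 6 groups of 2, one for each label (WT or *Rack7*-cKO) at each age. The question of the design is how loss of RACK7, a chromatin reader encoded by *Zmynd8*, changes the astrocytes as they develop. Per the methods, both genotypes carried hGFAP-Cre, a Cre recombinase driven by the human GFAP promoter that is active in neural stem cells, so that only part of the neurons and glia are targeted. WT mice were hGFAP-cre::*Rack7* +/+, and cKO mice were hGFAP-cre::*Rack7* fl/fl. Brains were stripped of meninges, and the cultures were shaken to remove microglia and oligodendrocytes. The cells grew in culture for days before the shaking and for days after it, until confluent. P1, P6 and P8 are therefore the ages of the brains and not of the cells at harvest. How many animals stood behind a library is not stated in the text used here, and p-values measure the spread between libraries, which the labels call biological replicates.

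Cholesterol is built from acetyl-CoA through mevalonate and the isoprenoid diphosphates to squalene, and squalene is then closed into lanosterol and trimmed to cholesterol. When sterol in the endoplasmic reticulum is low, SCAP carries the SREBP precursors to the Golgi, where they are cleaved, and the released factors switch on the genes of synthesis and uptake. INSIG proteins hold SCAP back when sterol is plentiful. The LXRs are nuclear receptors that bind oxysterols and switch on genes of sterol efflux, such as *Abca1* and *Abcg1*. In the brain, which the blood supplies with almost no cholesterol, astrocytes are a main source of this lipid for neurons.

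Each library held between 54413504 and 89183250 counts. *Zmynd8*, the gene targeted in the cKO mice, was higher under the label cKO than under the label WT at P1, P6 and P8, with log2 fold changes of 0.65 ± 0.05 (SE) at P1, 1.04 ± 0.05 at P6 and 0.70 ± 0.05 at P8 (adjusted p from 4.97e-07 to 3.16e-05, edgeR). A count over the whole gene does not isolate the deleted exons, so it does not check the deletion. The paper checked RACK7 protein in WT and cKO primary astrocytes by immunoblot. It also reports far fewer sites of RACK7 on chromatin in cKO than in WT astrocytes. Neither was measured in these libraries. Every direction below is that of the libraries labelled cKO against those labelled WT. Of the marker genes of 8 cell classes, the summed level of the 9 astrocyte markers was 2467 to 2509 CPM (counts scaled to a common library size) at P1 under the label WT and 2395 to 2414 under the label cKO, 1850 to 2050 and 1664 to 1804 at P6, and 1870 to 2264 and 955 to 959 at P8. Astrocyte markers were thus present in every group, and their sum was lowest in the P8 libraries labelled cKO, while single markers such as *Aldh1l1*, *S100b* and *Gja1* were lowest in other groups. The 10 markers of microglia and macrophages summed to between 3375 and 4627 CPM in the other groups and to 6481 and 6483 CPM in the P8 libraries labelled cKO. The 6 fibroblast markers, led by the collagen genes *Col1a1* and *Col1a2*, summed to 354 to 366 CPM at P1 under the label WT and 2406 to 2432 under the label cKO, to 6558 to 6605 and 2392 to 2571 at P6, and to 25572 to 25698 and 8080 to 8331 at P8. Defining markers of microglia and of fibroblasts were therefore not at 0 in these cultures, apart from *Lum* at 0 CPM in the P6 libraries labelled cKO, and the fibroblast markers stood on opposite sides of WT at P1 and at the later time points. The part of these markers in the results below was not tested. In bulk RNA, fewer cells of a type and less RNA per cell cannot be told apart.

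**Figure D1:**
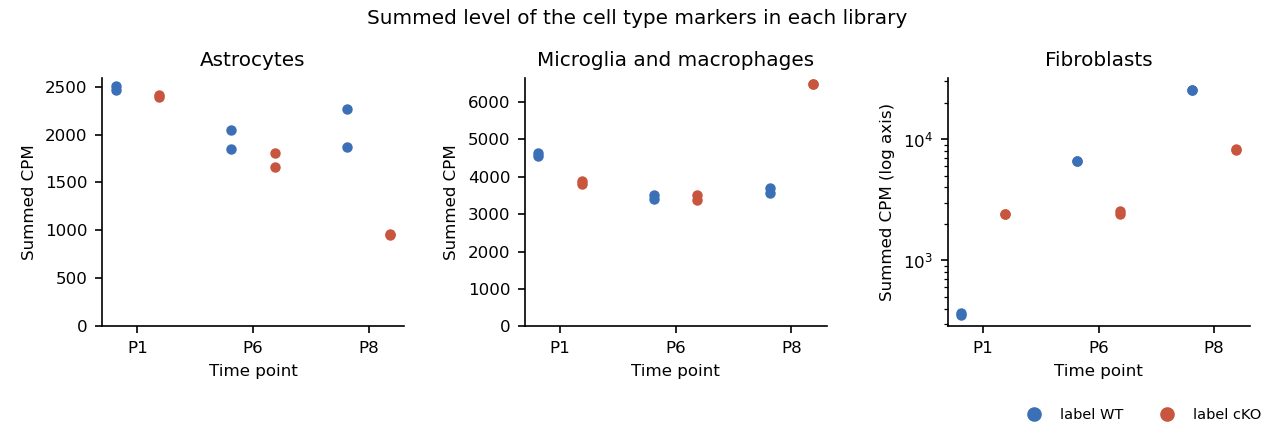
Summed CPM of the marker genes of astrocytes, microglia and macrophages, and fibroblasts (vertical axes, the last on a log scale) against time point, with a point for each of the 12 libraries. In the P8 libraries labelled cKO the astrocyte sum was 955 to 959, the microglia and macrophage sum 6481 to 6483 and the fibroblast sum 8080 to 8331.

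The promoters of 4 synthesis enzymes called lower at P6 are printed. The enzymes are known targets of the SREBPs and had the largest differences among those with 1 promoter listed. *Dhcr7*, with a larger difference than 3 of the 4, has 3 promoters listed, 1 of which holds CCAAT, and is not printed. *Lss*, *Acat2* and *Mvk*, also called lower with 1 promoter listed each, are not printed either. The *Acat2* promoter holds no CCAAT, while those of *Lss* and *Mvk* do. Each printed window runs from 250 bases before to 50 bases after the RefSeq start of the gene on GRCm38.p6, 5′ to 3′ along the strand of the gene. Capitals mark the core of the sterol regulatory element (TCACNCCAC, on either strand) and the box bound by NF-Y, a factor that works beside the SREBPs (CCAAT, on either strand). No marked stretch overlaps another in these windows, although the end of the first motif and the start of the second can share a base. *Hmgcs1* is at chr13:119690101-119690400 on the + strand, *Mvd* at chr8:122443373-122443672 on the - strand, *Cyp51* at chr5:4104648-4104947 on the - strand and *Nsdhl* at chrX:72918271-72918570 on the + strand.
Hmgcs1: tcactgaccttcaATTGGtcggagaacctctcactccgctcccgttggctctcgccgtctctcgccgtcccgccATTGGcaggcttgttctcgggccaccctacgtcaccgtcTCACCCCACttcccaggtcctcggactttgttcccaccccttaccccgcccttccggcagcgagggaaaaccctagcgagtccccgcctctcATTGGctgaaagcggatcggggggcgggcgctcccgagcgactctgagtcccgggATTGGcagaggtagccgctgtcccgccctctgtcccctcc
Mvd: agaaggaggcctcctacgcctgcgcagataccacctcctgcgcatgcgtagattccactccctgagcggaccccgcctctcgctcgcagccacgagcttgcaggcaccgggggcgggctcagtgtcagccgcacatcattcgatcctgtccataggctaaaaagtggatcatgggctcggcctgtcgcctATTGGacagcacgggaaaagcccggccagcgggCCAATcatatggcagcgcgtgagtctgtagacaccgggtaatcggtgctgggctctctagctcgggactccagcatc
Cyp51: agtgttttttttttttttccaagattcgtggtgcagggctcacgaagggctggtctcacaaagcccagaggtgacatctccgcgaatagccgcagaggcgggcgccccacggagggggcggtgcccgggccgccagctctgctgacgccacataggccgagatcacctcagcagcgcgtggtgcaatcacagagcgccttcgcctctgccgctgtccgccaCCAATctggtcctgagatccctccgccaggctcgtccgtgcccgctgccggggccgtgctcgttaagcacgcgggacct
Nsdhl: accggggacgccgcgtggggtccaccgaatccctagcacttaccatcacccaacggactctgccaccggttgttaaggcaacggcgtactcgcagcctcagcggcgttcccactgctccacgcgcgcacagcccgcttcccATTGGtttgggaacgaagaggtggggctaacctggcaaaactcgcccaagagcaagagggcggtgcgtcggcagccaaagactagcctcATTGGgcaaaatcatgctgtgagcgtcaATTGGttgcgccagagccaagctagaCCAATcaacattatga
The sterol regulatory element core was found in the *Hmgcs1* promoter, where it begins 137 bases before the start and reads TCACCCCAC. It was in 1 of the 36 promoters listed for 27 of the 34 genes (2.78%; not listed were *Fdps*, *Fdft1*, *Sqle*, *Abcg1*, *Stard4*, *Scd1* and *Scd2*) and in 1.24% of all 32851 promoters of that length. CCAAT was present 4 times in the *Hmgcs1* window, 4 times in that of *Nsdhl*, 2 times in that of *Mvd* and once in that of *Cyp51*. It was in 22 of the 36 promoters (61.1%), in 15 of the 19 listed for synthesis enzymes (78.9%) and in 37.4% of all promoters. The GC box (GGGCGG, on either strand, which can share bases with CCAAT read on the other strand) was in 69.4% of the 36, in 78.9% of those of the enzymes and in 35.7% of all. The E-box CACGTG, which reads alike on either strand, was in 19.4% of the 36 and 7.15% of all. The LXR element (DR4, AGGTCA repeated with 4 bases between, at most 2 mismatches, on either strand) was in 2.78% of the 36, in *Dhcr7*, and in 3.02% of all. These matches describe the letters of a short window and not where a factor binds.

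The 34 genes differ widely in level. On the RPKM scale, which divides counts by length and by depth, *Scd2*, a stearoyl-CoA desaturase and the main one in brain, had the highest mean over the 12 libraries, 227.8 RPKM. *Abca1*, which moves cholesterol out of the cell onto apolipoproteins, came next with 97.6 RPKM. *Hmgcs1*, the cytosolic HMG-CoA synthase, stood at 45.8 RPKM, *Scd1*, another desaturase, at 35.1, *Insig1* at 30.5 and *Cyp51*, the lanosterol demethylase, at 23.2. The lowest means were those of *Lss*, the lanosterol synthase (2.89 RPKM), *Nr1h3*, which encodes LXR alpha (2.05 RPKM), and *Tm7sf2*, a sterol reductase (1.71 RPKM). *Nr1h2*, which encodes LXR beta, was at 11.5 RPKM and so above *Nr1h3*. *Srebf2*, whose product mainly drives cholesterol genes, was at 21.9 RPKM, and *Srebf1*, whose product mainly drives fatty acid genes, at 13.8 RPKM. Lengths are those of all annotated exons joined, so a gene with long exons that these cells do not use has its RPKM understated.

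**Figure D2:**
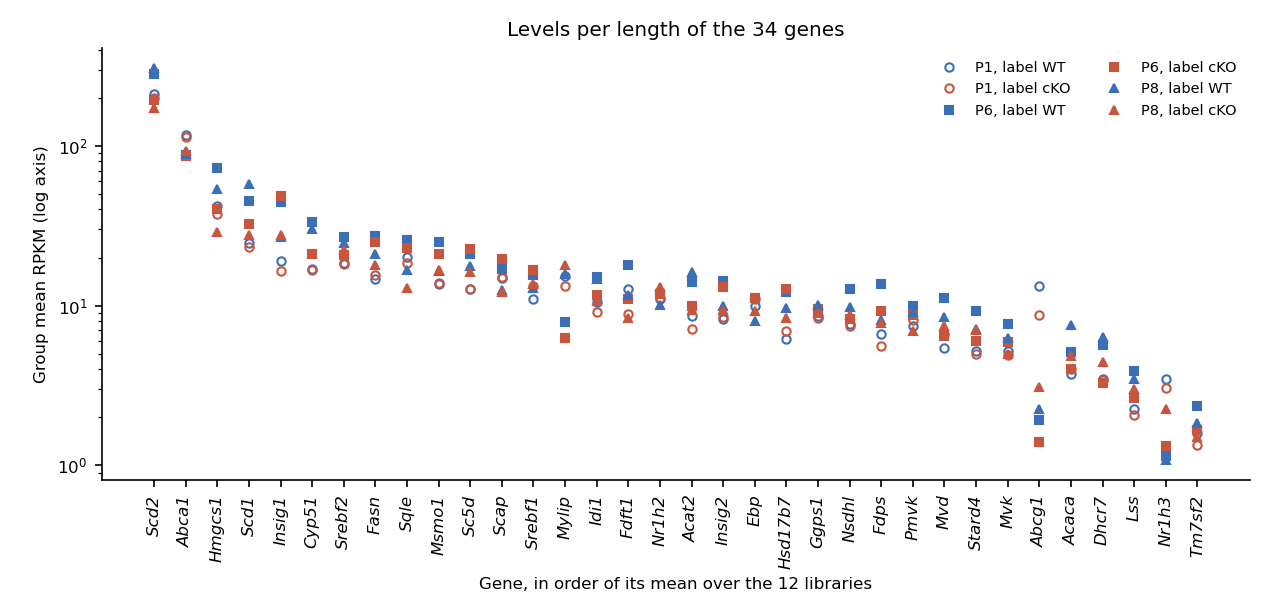
Group mean RPKM of the 34 genes (vertical log axis), ordered by their mean over the 12 libraries, with a symbol for each time point and a colour for each label. *Scd2* (227.8 RPKM) and *Abca1* (97.6) lead, and *Abcg1* and *Nr1h3* have the P1 groups on top.

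Between the groups, most of the genes of synthesis were highest in the P6 libraries labelled WT. This group had the highest mean for 17 of the 34 genes and for 13 of the 19 synthesis enzymes, while it was the highest group for 10.8% of all genes tested. The median of the enzymes relative to the P1 libraries labelled WT was 1.64-fold there, 1.15-fold in the P6 libraries labelled cKO, 1.28-fold at P8 under the label WT and 1.08-fold at P8 under the label cKO. In the P1 libraries labelled cKO it was 0.963-fold, and these held the lowest mean for 13 of the 34 genes and for 13.6% of all genes tested. The 6 genes of LXRs, transport and efflux had a median of 0.625-fold at P6 under the label WT and 0.553-fold under the label cKO, with *Abca1*, *Abcg1*, *Mylip* and *Nr1h3* under their P1 level and *Stard4* above it under the label WT. The heatmap of the 34 genes shows these blocks.

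**Figure D3:**
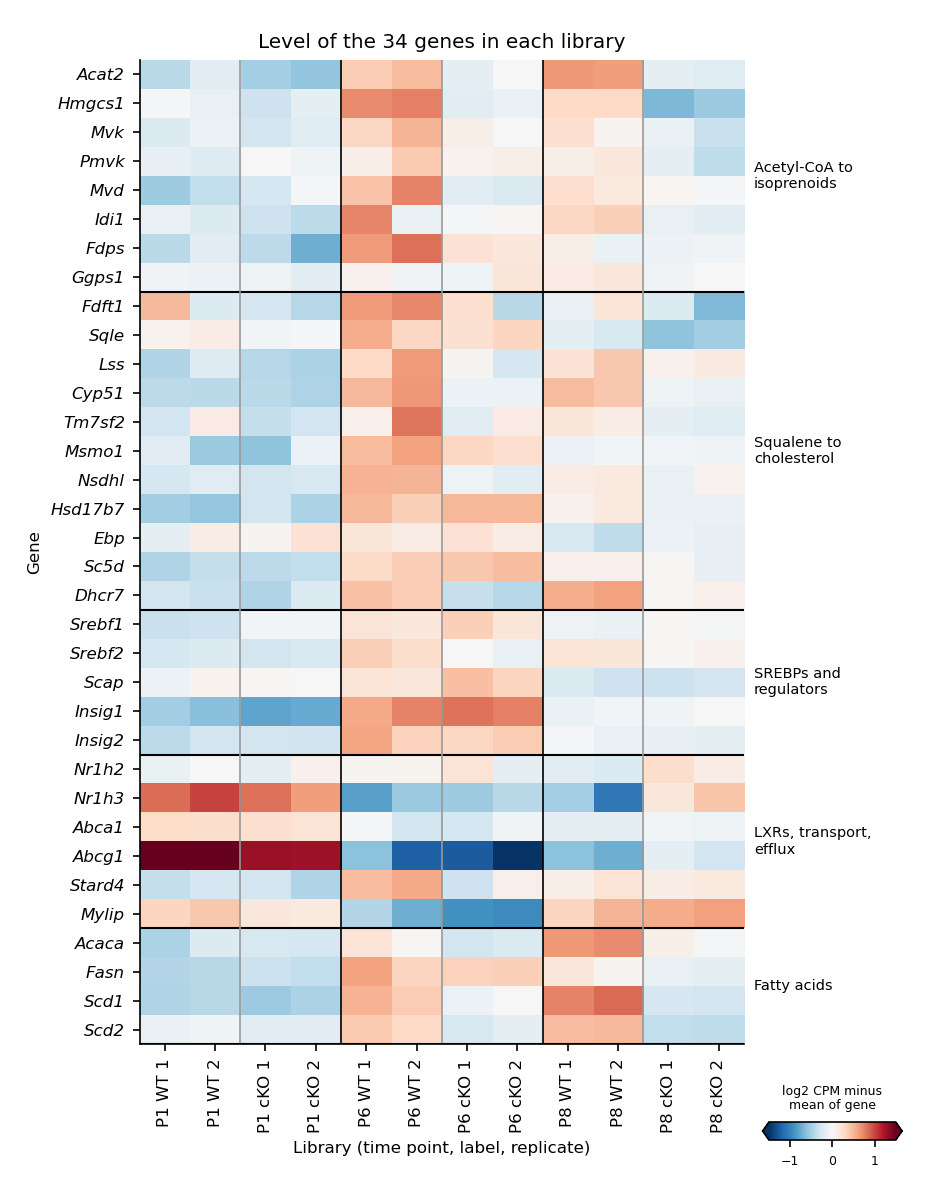
Log2 CPM of the 34 genes (rows, by role) in the 12 libraries (columns), each minus the mean of its gene over the libraries, with colours held at 1.5 either way. Most enzyme rows are darkest red in the 2 P6 libraries labelled WT, and *Abcg1*, *Nr1h3* and *Mylip* are blue at P6.

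At P1 few of these genes were called. In edgeR's quasi-likelihood test over all 12 libraries, with p adjusted by the method of Benjamini-Hochberg over the 17938 genes and a call at an adjusted p below 0.05, 1 of the 34 genes was higher under the label cKO (6.54% of all genes tested) and 0 were lower (2.94% of all). At an unadjusted p below 0.05 the counts were 2 higher and 4 lower, and DESeq2 called 1 higher and 3 lower, the latter being *Acat2*, *Abcg1* and *Insig1*. Over all genes and both directions DESeq2 called 2898 and edgeR 1701. The share of all genes at an unadjusted p is not given here or below. The median log2 fold change of the 34 was -0.05, and that of all genes 0.00. The gene that rose was *Srebf1*, with 61.5 and 62.5 CPM in the libraries labelled WT and 75.0 and 75.3 CPM in those labelled cKO. Its log2 fold change was 0.28 ± 0.06 (SE, 2 libraries against 2), which is 1.21-fold (adjusted p = 0.0216, edgeR). The call was lost when any one of the 4 P1 libraries was left out, with adjusted p from 0.0810 to 0.115. With a fold change of at least 1.5 as well, no member passed in either direction in edgeR, where 4.01% of all genes were higher and 0.892% lower.

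At P6 almost all calls among these genes were of enzymes and partners of lipid synthesis that were lower in the libraries labelled cKO. Of the 34 genes, 15 were lower against 12.5% of all genes, and 0 were higher against 13.2%, with a median log2 fold change of -0.36 beside 0.00 for all genes. For the higher direction, 1 gene had an unadjusted p below 0.05 and DESeq2 called 1, *Scap*. Over all genes and both directions DESeq2 called 5951 and edgeR 4603. The 15 were 9 of the 19 synthesis enzymes, *Srebf2*, *Stard4*, *Mylip* and 3 of the 4 fatty acid genes. The count was between 10, without replicate 2 of the P6 libraries labelled cKO, and 16 when single libraries were left out. With a fold change of at least 1.5 added, 6 of the 34 were lower, beside 6.38% of all genes lower and 7.16% higher. The fibroblast marker sum was 2392 to 2571 CPM in these libraries labelled cKO and 6558 to 6605 CPM in those labelled WT, while the microglia sums overlapped (3375 to 3517 and 3403 to 3521 CPM). Of the 10 single microglia and macrophage markers, 1 was called higher and 3 lower under the label cKO. *Tmem119* had a mean of 22.4 CPM against 37.4 CPM under the label WT, and *C1qa* 714 against 594 CPM. The part of these markers in the result was not tested.

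In the first stretch of the pathway, from acetyl-CoA to farnesyl and geranylgeranyl diphosphate, 5 of 8 enzymes were lower at P6 (12.5% of all genes). *Hmgcs1*, whose promoter holds the sterol regulatory element core printed above (ENSMUSG00000093930, chr13:119690379-119708260), had 330 and 339 CPM under the label WT and 180 and 188 CPM under the label cKO. The groups did not overlap, and the log2 fold change was -0.86 ± 0.07 (SE), or 1.82-fold lower (adjusted p = 1.74e-05, edgeR). *Mvd*, the decarboxylase that makes isopentenyl diphosphate (ENSMUSG00000006517, chr8:122433601-122443422), went from 18.5 and 23.0 CPM to 12.3 and 11.8 CPM. Its log2 fold change was -0.78 ± 0.13 (adjusted p = 0.00169, edgeR). *Fdps*, the farnesyl diphosphate synthase, had 53.4 and 60.8 CPM against 39.7 and 38.3 CPM, a log2 fold change of -0.55 ± 0.13 (adjusted p = 0.0117). The *Fdps* call was lost without replicate 2 of the P6 libraries labelled WT (adjusted p = 0.0737) or labelled cKO (0.0624). *Acat2*, the cytosolic thiolase that starts the pathway, and *Mvk*, the mevalonate kinase, were also lower, with log2 fold changes of -0.50 ± 0.10 and -0.37 ± 0.12 (adjusted p = 0.00449 and 0.0482). The other 3 were not called: *Pmvk*, the phosphomevalonate kinase (-0.19), *Idi1*, the isomerase of isopentenyl diphosphate (-0.37), and *Ggps1*, the geranylgeranyl diphosphate synthase (0.06). Of the 50-base words of *Acat2* transcripts 39.1% are shared with *Acat3*, and of those of *Fdps* 26.2% with other genes, so some of their reads could have been given to another gene.

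In the second stretch, from squalene to cholesterol, 4 of 11 enzymes were lower at P6 (12.5% of all genes). *Dhcr7*, the reductase of the last step (ENSMUSG00000058454, chr7:143823145-143848410), had 33.8 and 32.6 CPM under the label WT and 19.6 and 18.5 CPM under the label cKO. The log2 fold change was -0.80 ± 0.09, or 1.74-fold lower (adjusted p = 0.000220, edgeR). *Cyp51* (ENSMUSG00000001467, chr5:4081145-4104746) had 139 and 156 CPM against 92.8 and 93.4 CPM, with a log2 fold change of -0.66 ± 0.06 (adjusted p = 4.63e-05). Its replicates labelled cKO lay close together and under both labelled WT. *Nsdhl*, a dehydrogenase of the demethylation steps, had 36.5 and 36.2 CPM against 24.1 and 22.7 CPM, a log2 fold change of -0.63 ± 0.08 (adjusted p = 0.000363). *Lss* had 37.3 and 47.1 CPM against 31.1 and 25.5 CPM, a log2 fold change of -0.58 ± 0.14 (adjusted p = 0.0155), and its call was lost without replicate 2 of the label WT (0.103) or of the label cKO (0.101). The other 7 were not called and ranged from -0.72 ± 0.27 for *Fdft1*, the squalene synthase, to 0.10 ± 0.06 for *Sc5d*, a sterol desaturase. Between them were *Tm7sf2* (-0.50), *Msmo1*, a methylsterol oxidase (-0.25), *Sqle*, the squalene epoxidase (-0.16), *Ebp*, the sterol isomerase (0.01), and *Hsd17b7*, a sterol ketoreductase (0.07). *Fdft1*, *Idi1* and *Tm7sf2* were also the members with the widest spread between replicates, with coefficients of variation of up to 33.1%, 40.2% and 35.2%, where the median of this maximum over the 34 genes was 12.5%. Exons of *Fdft1* overlap those of *Ctsb* on the other strand, and *Tm7sf2* overlaps *Vps51*. The strand setting of the counting is unknown here.

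**Figure D4:**
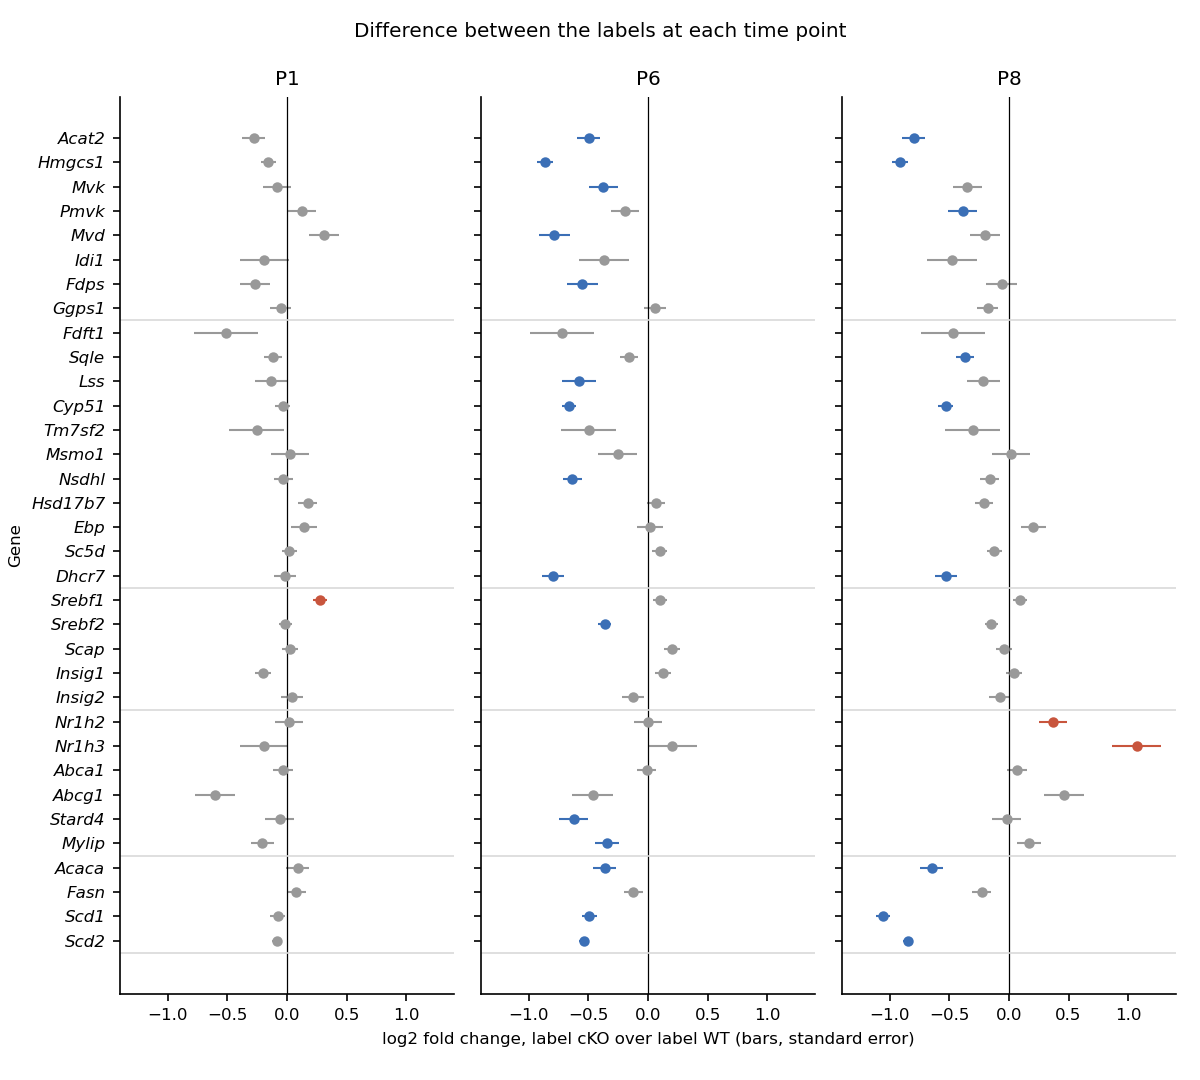
Log2 fold change of the libraries labelled cKO over those labelled WT (horizontal axes) for the 34 genes at P1, P6 and P8, with bars for the standard error. Blue points were called lower and red points higher at an adjusted p below 0.05 in edgeR, 15 lower at P6 and 9 lower and 2 higher at P8, and grey points were not called.

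Of the 5 genes of the SREBPs and their regulators, 1 was called at P6, where 12.5% of all genes were lower and 13.2% higher. *Srebf2* (ENSMUSG00000022463, chr15:82147181-82205379) had 200 and 186 CPM under the label WT and 157 and 143 CPM under the label cKO. Its log2 fold change was -0.36 ± 0.06 (adjusted p = 0.00121, edgeR). *Insig1*, itself a known target of the SREBPs, had 130 and 146 CPM against 154 and 147 CPM, so both libraries labelled cKO lay above both labelled WT, and the log2 fold change of 0.12 ± 0.07 did not pass the test (adjusted p = 0.228). *Insig2*, the other INSIG gene, had 54.1 and 45.6 CPM against 44.6 and 46.8 CPM, with a log2 fold change of -0.13 ± 0.09 (adjusted p = 0.360). *Srebf1* had 88.2 and 86.3 CPM against 99.1 and 88.0 CPM (0.10 ± 0.06, adjusted p = 0.281). *Scap* was at 0.20 ± 0.07 (adjusted p = 0.0558).

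Among the genes of LXRs, transport and efflux at P6, 2 of 6 were lower (12.5% of all genes). *Stard4*, which carries cholesterol through the cytosol and is known as an SREBP target, had 49.7 and 53.3 CPM under the label WT and 29.0 and 37.9 CPM under the label cKO, a log2 fold change of -0.62 ± 0.12 (adjusted p = 0.00478, edgeR). *Mylip*, an LXR target that marks lipoprotein receptors for breakdown, was lower as well, with a log2 fold change of -0.35 ± 0.10 (adjusted p = 0.0328). Neither LXR gene was called. *Nr1h2* had 39.7 and 39.8 CPM against 44.4 and 35.0 CPM (adjusted p = 1.00), and *Nr1h3* had 2.62 and 3.11 CPM against 3.17 and 3.44 CPM (0.20 ± 0.21, adjusted p = 0.541). *Abca1* had 989 and 827 CPM against 838 and 964 CPM, with overlapping groups (-0.01 ± 0.08, adjusted p = 0.952). *Abcg1*, the partner of *Abca1* in efflux to lipoproteins, had 17.0 and 11.2 CPM against 11.0 and 9.43 CPM, a log2 fold change of -0.46 ± 0.17 that did not pass the test (adjusted p = 0.0776) and passed it without replicate 2 of the P6 libraries labelled WT (0.00266).

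Of the fatty acid genes at P6, *Scd2* had 1596 and 1492 CPM under the label WT and 1026 and 1104 CPM under the label cKO (-0.54 ± 0.04, adjusted p = 1.83e-05, edgeR). *Scd1* had 233 and 211 CPM against 153 and 163 CPM (-0.49 ± 0.06, adjusted p = 0.000308). *Acaca*, the carboxylase that commits acetyl-CoA to fatty acids, was at -0.36 ± 0.09 (adjusted p = 0.0192), and *Fasn*, the fatty acid synthase, at -0.12 ± 0.08 (adjusted p = 0.314). Of the 50-base words of *Acaca* transcripts 30.4% are shared with another gene, and of those of *Scd1* and *Scd2* 4.56% and 3.97%.

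At P8, 9 of the 34 genes were lower in the libraries labelled cKO, against 14.8% of all genes, and 2 were higher, against 19.6%. The median log2 fold change was -0.19, beside 0.01 for all genes. The 9 were *Acat2*, *Hmgcs1*, *Pmvk*, *Sqle*, *Cyp51*, *Dhcr7*, *Acaca*, *Scd1* and *Scd2*, and the 2 were *Nr1h2* and *Nr1h3*. DESeq2 called 14 lower and 3 higher, and over all genes and both directions it called 7339 where edgeR called 6162. With a fold change of 1.5 or more required, 5 genes were lower (8.37% of all) and 1 was higher (11.2% of all). Of the genes lower at P8, 7 were also lower at P6, in other libraries, which is 77.8% of the 9 and 46.7% of the 15, where over all genes tested it is 38.7% of those lower at P8 and 45.9% of those lower at P6: *Acat2*, *Hmgcs1*, *Cyp51*, *Dhcr7*, *Acaca*, *Scd1* and *Scd2*. The P8 libraries labelled cKO were also those with the lowest astrocyte sum (955 to 959 against 1870 to 2264 CPM), a fibroblast sum of 8080 to 8331 against 25572 to 25698 CPM and a microglia and macrophage sum of 6481 to 6483 against 3569 to 3689 CPM. Of the single markers, 7 of 9 astrocyte genes and 6 of 6 fibroblast genes were lower and 7 of 10 microglia and macrophage genes higher, while the astrocyte marker *Aldh1l1* was higher (51.8 to 72.7 CPM) and the microglia marker *Tmem119* lower (59.8 to 22.9 CPM), and their part in the results at P8 was not tested.

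The 2 desaturases were among the 4 members that fell most at P8, with *Hmgcs1* and *Acat2*. *Scd1* (ENSMUSG00000037071, chr19:44394455-44407879) had 271 and 291 CPM under the label WT and 136 and 134 CPM under the label cKO. The log2 fold change was -1.06 ± 0.06, or 2.08-fold lower (adjusted p = 1.45e-06, edgeR). *Scd2* (ENSMUSG00000025203, chr19:44293674-44306864) had 1675 and 1702 CPM against 941 and 937 CPM, a log2 fold change of -0.85 ± 0.04 (adjusted p = 5.47e-07). Neither gene had overlapping groups. *Acaca* had 127 and 133 CPM against 86.3 and 79.4 CPM (-0.65 ± 0.09, adjusted p = 0.000569), and *Fasn* was at -0.23 ± 0.08 (adjusted p = 0.0518).

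Of the enzymes of cholesterol synthesis, 6 of 19 were lower at P8 (14.8% of all genes). *Hmgcs1* had 248 and 249 CPM under the label WT and 126 and 137 CPM under the label cKO, a log2 fold change of -0.91 ± 0.07 or 1.88-fold lower (adjusted p = 6.88e-06, edgeR). *Acat2* had 41.6 and 40.9 CPM against 24.0 and 23.4 CPM (-0.80 ± 0.10, adjusted p = 0.000176). In each of these genes the 4 libraries formed 2 tight pairs. *Cyp51* had 137 and 131 CPM against 93.9 and 91.6 CPM (-0.53 ± 0.06, adjusted p = 0.000115), and *Dhcr7* had 36.3 and 37.8 CPM against 25.2 and 26.2 CPM (-0.53 ± 0.09, adjusted p = 0.00181). *Pmvk* was at -0.39 ± 0.12 and *Sqle* at -0.37 ± 0.08 (adjusted p = 0.0322 and 0.00524). *Mvd*, *Fdps*, *Lss* and *Nsdhl*, called lower at P6, were at -0.20, -0.06, -0.21 and -0.16 and were not called, and *Mvk* was at -0.35 (adjusted p = 0.0504). The other 8 enzymes ranged from -0.48 for *Idi1* to 0.21 for *Ebp*.

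The SREBP regulators gave no call at P8 in edgeR, while *Srebf2* had an unadjusted p below 0.05 and was called by DESeq2. It had 179 and 176 CPM under the label WT and 158 and 162 CPM under the label cKO (-0.15 ± 0.06, adjusted p = 0.0722, edgeR). *Insig1* had 81.3 and 84.7 CPM against 84.3 and 87.0 CPM (0.05 ± 0.07), *Insig2* 35.5 and 33.3 CPM against 32.8 and 32.4 CPM (-0.08 ± 0.09), and *Srebf1* 73.2 and 72.1 CPM against 78.3 and 76.5 CPM (0.09 ± 0.06). Their adjusted p were 0.662, 0.572 and 0.296. *Scap* was at -0.04.

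The LXR genes were the members called higher at P8. *Nr1h3* (ENSMUSG00000002108, chr2:91184061-91202834) had 3.23 and 2.17 CPM under the label WT and 5.18 and 6.15 CPM under the label cKO, so the groups did not overlap. The log2 fold change was 1.07 ± 0.21, or 2.10-fold (adjusted p = 0.00324, edgeR), at a level where the coefficient of variation of the P8 WT pair was 27.6%. *Nr1h2* had 34.4 and 33.4 CPM against 46.3 and 41.4 CPM (0.37 ± 0.12, adjusted p = 0.0366), and the call was lost without either P6 library labelled WT or any P8 library, with adjusted p from 0.0505 to 0.199. The transporters known as LXR targets were *Abca1*, with 917 and 915 CPM against 971 and 951 CPM (0.07 ± 0.08, adjusted p = 0.570), and *Abcg1*, with 17.1 and 15.7 CPM against 23.8 and 21.4 CPM (0.46 ± 0.17, adjusted p = 0.0617). Both libraries labelled cKO lay above both labelled WT for *Abcg1*, and without either P6 library labelled WT its adjusted p was 0.00609 to 0.00627. *Mylip* was at 0.17 and *Stard4* at -0.02. *Nr1h3*, *Abcg1* and the microglia and macrophage sum were all above WT in the P8 libraries labelled cKO, and the part of that sum in these values was not tested.

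**Figure D5:**
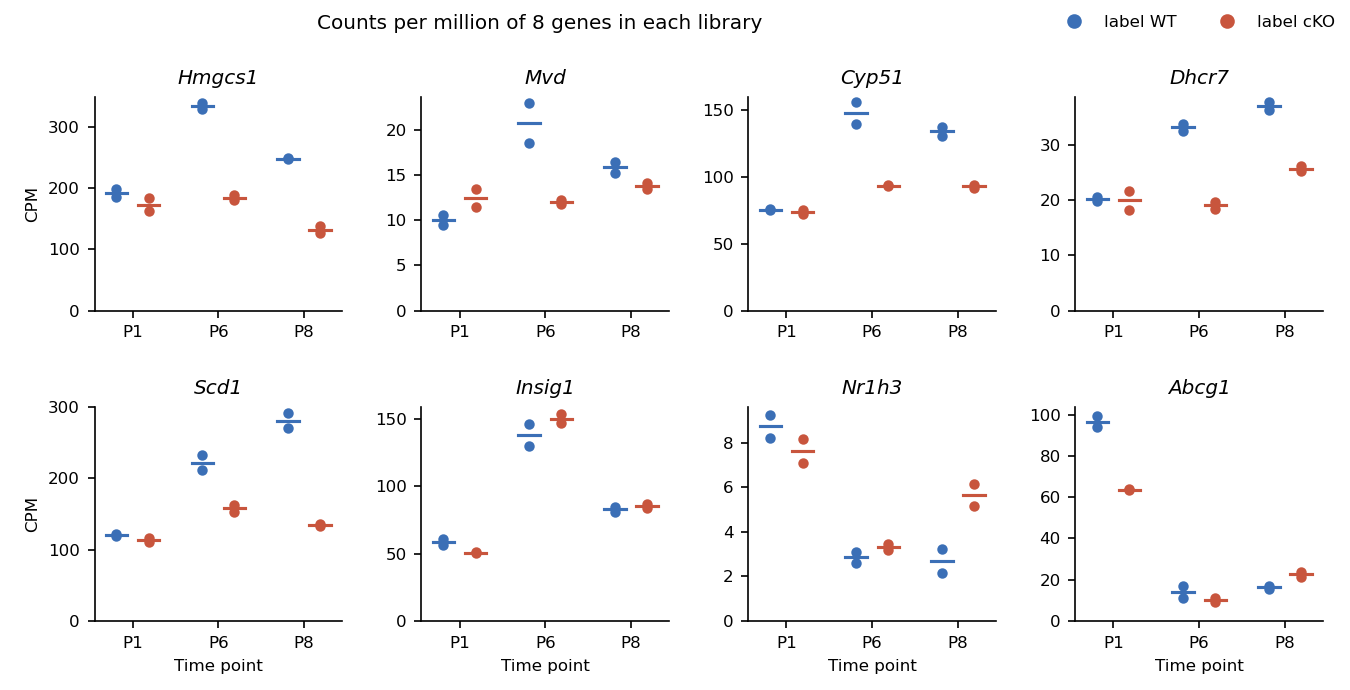
CPM of 8 genes (vertical axes from 0) against time point, with a point for each library and a bar at the group mean, blue for the label WT and red for the label cKO. *Hmgcs1*, *Cyp51*, *Dhcr7* and *Scd1* separate the labels at P6 and P8, *Insig1* peaks at P6 under both labels, and *Nr1h3* and *Abcg1* are highest at P1.

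Whether the difference between the labels changed with time was tested by interaction terms, which subtract the difference at one time point from that at another. From P1 to P6 it moved down for 8 of the 34 genes, against 8.19% of all genes, and up for 0 in edgeR, against 7.12%. At an unadjusted p below 0.05, 1 gene moved up, and DESeq2 called 1, *Insig1*. Over all genes and both directions DESeq2 called 4077 and edgeR 2746. *Mvd* changed most, with an interaction of -1.09 ± 0.18 on the log2 scale (adjusted p = 0.00327, edgeR), from 0.31 at P1 to -0.78 at P6. At P1 it had 9.49 and 10.6 CPM under the label WT and 11.5 and 13.4 CPM under the label cKO. *Dhcr7* followed with -0.78 ± 0.13 (adjusted p = 0.00348), from 20.6 and 19.8 CPM against 18.2 and 21.7 CPM at P1. *Hmgcs1*, *Cyp51*, *Nsdhl*, *Scd2*, *Scd1* and *Srebf2* were the other 6, at -0.70 to -0.35.

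From P6 to P8 the difference moved up for 5 of the 34 genes, against 12.6% of all genes, and down for 2, against 8.83%. *Abcg1* moved up by 0.93 ± 0.24 (adjusted p = 0.0226, edgeR), a call that was lost without replicate 2 of the P6 libraries labelled cKO, replicate 2 of the P8 libraries labelled WT or replicate 1 of those labelled cKO (adjusted p from 0.0749 to 0.0759). *Stard4* moved up by 0.60 ± 0.17 (adjusted p = 0.0341), with 38.3 and 41.6 CPM against 39.0 and 40.0 CPM at P8, and its call was lost in 7 of the 12 fits that left out a library (adjusted p from 0.0539 to 0.108). *Mvd*, *Mylip* and *Nsdhl* also moved up, and *Scd1* and *Scd2* moved further down, by 0.57 ± 0.08 and 0.31 ± 0.06 on the log2 scale (adjusted p = 0.00136 and 0.00505). The P6 libraries are shared by this term and the one before. The count was 3 without replicate 1 of the P8 libraries labelled cKO.

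Between P1 and P8 the difference moved up for 2 genes, against 14.0% of all, and down for 8, against 11.7%. The LXR gene *Nr1h3* moved up by 1.27 ± 0.29 (adjusted p = 0.0104, edgeR) from 8.23 and 9.25 CPM under the label WT and 8.16 and 7.09 CPM under the label cKO at P1. *Abcg1* moved up by 1.06 ± 0.24 (adjusted p = 0.00905). At P1 it had 93.8 and 99.2 CPM under the label WT and 63.9 and 63.2 CPM under the label cKO, a log2 fold change of -0.60 ± 0.17 that just missed the call (adjusted p = 0.0544) and passed it without either P6 library labelled WT (0.00584 to 0.00615). So the libraries labelled cKO were below both WT libraries at P1 and above both at P8. *Scd1* moved by -0.98 ± 0.09 (adjusted p = 3.28e-05), from 119 and 122 CPM against 111 and 116 CPM at P1, and *Scd2* by -0.77 ± 0.06 (adjusted p = 1.45e-05), from 1135 and 1160 CPM against 1086 and 1083 CPM. *Hmgcs1*, *Acaca*, *Acat2*, *Dhcr7*, *Cyp51* and *Hsd17b7* made up the other 6, at -0.76 to -0.38. For the remaining regulators at P1, *Insig1* had 60.8 and 56.4 CPM against 50.2 and 51.6 CPM (-0.20 ± 0.07, adjusted p = 0.112, edgeR), *Srebf2* 129 and 135 CPM against 128 and 133 CPM (-0.01 ± 0.06, adjusted p = 0.934), and *Insig2* 27.4 and 29.6 CPM against 29.6 and 29.1 CPM (0.04 ± 0.09, adjusted p = 0.866). *Nr1h2* had 35.8 and 38.2 CPM against 34.8 and 40.1 CPM, and *Abca1* 1215 and 1200 CPM against 1195 and 1160 CPM (adjusted p = 0.965 and 0.872).

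The steps between ages within a label compare separate cultures from brains of those ages. They use the same libraries as the differences above, so their values stand beside those and add no separate evidence. From P1 to P6 most of the genes rose under the label WT. Of the 34, 24 were higher at P6, against 20.7% of all genes, and 4 were lower, against 19.2%, with a median log2 fold change of 0.56. The 24 were 14 of the 19 synthesis enzymes, all 5 SREBP regulators, all 4 fatty acid genes and *Stard4*, and the 4 that fell were *Abca1*, *Abcg1*, *Mylip* and *Nr1h3*. In the same step the fibroblast sum went from 354 to 366 CPM to 6558 to 6605 CPM under the label WT and from 2406 to 2432 CPM to 2392 to 2571 CPM under the label cKO, and its part was not tested. Under the label cKO 14 genes were higher at P6, against 19.7% of all, and 4 were lower, against 18.7%, with a median of 0.28. All 14 were among the 24, and the 10 called under the label WT alone were *Acaca*, *Dhcr7*, *Hmgcs1*, *Lss*, *Mvd*, *Mvk*, *Nsdhl*, *Pmvk*, *Scd2* and *Stard4*. Whether the step differed between the labels is what the interaction from P1 to P6 tests, and it was called for 5 of these 10, *Dhcr7*, *Hmgcs1*, *Mvd*, *Nsdhl* and *Scd2*.

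*Abcg1* had the largest step of the members, from 93.8 and 99.2 to 17.0 and 11.2 CPM under the label WT (-2.78 ± 0.18, adjusted p = 1.99e-06, edgeR) and from 63.9 and 63.2 to 11.0 and 9.43 CPM under the label cKO (-2.64 ± 0.18, adjusted p = 3.97e-06). *Nr1h3* fell too, with log2 fold changes of -1.61 ± 0.21 (adjusted p = 0.000239) under the label WT and -1.21 ± 0.21 (adjusted p = 0.00147) under the label cKO. The microglia and macrophage sum went from 4556 to 4627 CPM at P1 to 3403 to 3521 CPM at P6 under the label WT and from 3815 to 3886 CPM to 3375 to 3517 CPM under the label cKO, and its part was not tested. *Insig1* rose most, by 1.24 ± 0.07 or 2.35-fold under the label WT (adjusted p = 7.97e-07) and by 1.56 ± 0.07 or 2.96-fold under the label cKO (adjusted p = 3.31e-07). Its interaction was not called in edgeR, so the steps are not shown to differ.

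From P6 to P8 more of the genes fell than rose under either label. Under the label WT 15 were lower, against 19.0% of all genes, and 4 were higher, against 16.2%, with a median of -0.26, and the total of 19 was 12 without replicate 2 of the P8 libraries labelled WT. *Fdps* fell from 53.4 and 60.8 to 36.2 and 31.9 CPM (-0.75 ± 0.13, adjusted p = 0.00172, edgeR), and *Insig1* had a log2 fold change of -0.73 ± 0.07 (adjusted p = 3.85e-05). *Mylip* rose from 28.2 and 23.1 to 48.1 and 54.6 CPM (1.00 ± 0.10, adjusted p = 6.58e-05), and *Acaca*, *Scd1* and *Scd2* were the other 3 that rose. Under the label cKO 11 were lower, against 19.2% of all, and 5 were higher, against 20.0%, with a median of -0.16. Here *Mylip* rose from 20.5 and 19.9 to 56.7 and 58.9 CPM (1.52 ± 0.10, adjusted p = 2.90e-06) and *Abcg1* from 11.0 and 9.43 to 23.8 and 21.4 CPM (1.15 ± 0.17, adjusted p = 0.000540). *Sqle* fell from 123 and 132 to 69.6 and 73.7 CPM (-0.83 ± 0.08, adjusted p = 2.50e-05). *Scd1* and *Scd2*, which rose under the label WT in this step, fell under the label cKO, and their interaction from P6 to P8 was called.

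Other genes of the pathway were counted from lists by role, to be read beside the shares of all genes given above, 13.2% higher and 12.5% lower at P6 and 19.6% higher and 14.8% lower at P8. Of 9 genes of sterol sensing in the endoplasmic reticulum and Golgi, 2 were higher and 2 lower at P6, and 3 were higher and 3 lower at P8. *Pgrmc1*, a heme-binding partner of sterol enzymes and INSIG, had 257.7 and 252.5 CPM under the label WT and 132 and 128 CPM under the label cKO at P8 (-0.97 ± 0.04, adjusted p = 2.58e-07, edgeR). *Mbtps1*, the protease that makes the first cleavage of the SREBPs, had 213 and 201 CPM against 154 and 151 CPM (-0.44 ± 0.05, adjusted p = 0.000107). Of 15 genes of sterol transport, storage and oxidation, 1 was higher and 3 lower at P1 (6.54% and 2.94% of all genes), 3 were higher and 3 lower at P6, and 7 were higher and 3 lower at P8. *Ch25h*, which makes the LXR ligand 25-hydroxycholesterol and is also known as an interferon-induced gene of macrophages, had 35.9 and 37.6 CPM under the label WT and 155 and 148 CPM under the label cKO at P8, a log2 fold change of 2.05 ± 0.10 or 4.13-fold (adjusted p = 6.79e-07). At P1 *Ch25h* had 117 and 112 CPM against 112 and 119 CPM, and at P6 14.8 and 19.0 CPM against 28.5 and 27.3 CPM. Both labels thus stood under their P1 level at P6, and at P8 the libraries labelled WT did so and those labelled cKO did not. *Vldlr*, a lipoprotein receptor, had 22.5 and 19.1 CPM against 57.6 and 59.4 CPM at P6 (1.49 ± 0.08, adjusted p = 1.63e-06) and 43.7 and 44.6 CPM against 42.6 and 42.8 CPM at P8.

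Of 10 genes of fatty acid and acetyl-CoA supply, 3 were higher and 3 lower at P6, and 2 were higher and 6 lower at P8, again beside 13.2% and 12.5%, and 19.6% and 14.8%, of all genes. *Elovl6*, an elongase of saturated fatty acids and a known SREBP target, had 45.7 and 50.4 CPM under the label WT and 21.2 and 20.9 CPM under the label cKO at P8 (-1.19 ± 0.10, adjusted p = 1.44e-05, edgeR). It was lower at P6 too (-1.07 ± 0.10, adjusted p = 4.99e-05). *Acss2*, which makes acetyl-CoA from acetate, had 21.0 and 16.3 CPM against 10.6 and 8.25 CPM at P8 (-0.99 ± 0.16, adjusted p = 0.00126). Of 8 genes of the isoprenoid branch, 1 was higher and 1 lower at P8, namely *Nus1*, a subunit of the dolichol-forming prenyltransferase (0.39 ± 0.05, adjusted p = 0.000158), and *Fnta*, a farnesyltransferase subunit (-0.38 ± 0.07, adjusted p = 0.00331). Of the 3 RXR genes, whose products pair with the LXRs, *Rxra* was lower at P6, with 137 and 142 CPM against 92.5 and 95.5 CPM (-0.57 ± 0.05, adjusted p = 5.90e-05), and at P8 (-0.22 ± 0.05, adjusted p = 0.0114).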

How the data were processed

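RNA-seq of 12 libraries from cultured mouse astrocytes was examined, 2 for each of 6 groups set by label (WT or *Rack7*-cKO) and time point (P1, P6, P8). The authors deposited counts, whole numbers of reads per gene and not normalized. Per the labels and methods, reads were mapped with Hisat2 to GRCm38 (mm10), while for the counting program, annotation and strand setting nothing is given in the sources used here. Overlapping genes and genes with shared sequence are uncertain. Replicates differed by more than counting noise. Precision is limited by 2 libraries a group.

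R 4.3.3, edgeR 4.0.16 and limma 3.58.1 were used, with the filter on low counts, TMM factors (0.943 to 1.07), 1 mean for each group over all 12 libraries and the quasi-likelihood test. The label cKO was compared with the label WT at P1, P6 and P8, then these differences between ages, and each label with itself across ages. CPM are TMM-scaled, RPKM use exon lengths of GENCODE vM21, and a standard error is the log2 fold change over the root of F. A gene was called at a Benjamini-Hochberg adjusted p below 0.05 over 17938 genes. The methods of the study name DESeq2 and ballgown with a p and a fold cut-off of 1.5, given here as an alternative. The fits were tested on simulated data.

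Alternatives were DESeq2 1.42.0 and its size factors, no filter, the replicate number as a block, each time point alone, both fold rules and each library left out. Where that leaves a lone library, its spread is taken to be that of the other groups. All 34 genes are named. Full values are given for up to 8 called members with the largest change and no overlap at each time point, for the SREBP, INSIG, LXR and efflux transporter genes, for the largest interactions (4 from P1 to P8, 2 for each of the others) and for the 3 largest steps, and in other lists for the 2 largest called. Members, lists and markers were chosen with earlier results of these data known. Promoters came from RefSeq (GRCm38.p6), with 27 of 34 members matched. Shared sequence was measured as 50-base words of GENCODE transcripts found on the same strand of another gene.

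Marker lists covered fibroblasts, astrocytes, microglia and macrophages, endothelial and mural cells, neurons, the oligodendrocyte lineage and proliferation, and those not described in the report are given at the end.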

Additional observations from a re-analysis of the deposited data

Results flagged for a closer look

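For some members the difference between the labels cKO and WT changed between time points by the interaction term of edgeR (adjusted p below 0.05 over all genes). From P1 to P6 the log2 difference moved by -1.09 for *Mvd* and by -0.78 for *Dhcr7*. From P6 to P8 it moved by 0.93 for *Abcg1* and by 0.60 for *Stard4*. From P1 to P8 it moved by 1.27 for *Nr1h3*, 1.06 for *Abcg1*, -0.98 for *Scd1* and -0.77 for *Scd2*. The summed microglia and macrophage markers went from 3815 to 3886 CPM at P1 to 6481 to 6483 CPM at P8 under the label cKO and from 4556 to 4627 CPM to 3569 to 3689 CPM under the label WT, and their part in the values of *Nr1h3* and *Abcg1* was not tested.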

How the results depend on the processing

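The lowest value of a named member was 2.17 CPM, and each group had 2 libraries. No called value changed sign. Of the values of named members refitted without each library, 677 kept their call or their lack of one, 24 lost the call and 7 gained one. A change of sign was looked for only where the main or the refitted value was called. Adding a fold change of at least 1.5 to the adjusted p moved the count of members higher at P1 from 1 to 0, lower at P6 from 15 to 6, higher at P8 from 2 to 1 and lower at P8 from 9 to 5, the interactions from 8 to 5 (P1 to P6), 7 to 2 (P6 to P8) and 10 to 6 (P1 to P8), and the steps from 19 to 5 (WT, P6 to P8), 18 to 10 (cKO, P1 to P6) and 16 to 7 (cKO, P6 to P8). With the unadjusted p and that fold change the counts were 0 higher and 1 lower at P1, 7 lower at P6, 1 higher and 5 lower at P8, and 6, 10 and 7 for those 3 steps. DESeq2 on all libraries gave 3 lower at P1, 1 higher at P6, 14 lower at P8 and 12 for the interaction from P6 to P8. Over all genes DESeq2 also called more than edgeR, with 5270 against 3849 for that interaction. With the size factors of DESeq2, edgeR gave 1 higher at P6. The libraries of a time point alone gave 1 lower at P1. *Lss* at P6 lost its call in the fit of that time point alone (adjusted p = 0.0547, edgeR), and *Srebf2* at P8 gained one there (0.0189), with the size factors (0.0448) and in DESeq2 (0.00971).

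Leaving out each library gave 0 to 1 higher and 0 to 1 lower at P1, 0 to 1 higher and 10 to 16 lower at P6, 1 to 2 higher and 8 to 11 lower at P8, 7 to 12, 3 to 8 and 7 to 14 for the interactions in the order above, 27 to 28 and 12 to 20 for the WT steps and 15 to 19 and 13 to 17 for the cKO steps. The high ends of the first and the third interaction came without replicate 2 and replicate 1 of the P6 libraries labelled WT. The replicate number, used as a block, gave 1 member lower at P1 (*Abcg1*, adjusted p = 0.0391, edgeR) and a call for *Abcg1* at P8 (0.0415). Deviations of same-numbered WT and cKO libraries correlated at -0.02 (P1), -0.02 (P6) and -0.08 (P8). Weak correlations of single differences cannot show whether same-numbered libraries shared a litter or a batch. The causes were not tested.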

Other observations

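Markers of other cell classes differed between the labels as well. Of 10 neuronal markers listed, 3 were in the counts. They summed to 116 to 125 CPM under the label WT and 232 to 249 CPM under the label cKO at P6. The sums were 65.2 to 68.5 and 176 to 178 CPM at P8, and 134 to 135 and 128 to 131 CPM at P1. *Stmn2* led the sum at P1 (122 and 108 CPM), P6 (102 and 219 CPM) and P8 (49.8 and 152 CPM). *Syt1* was at 2.14 and 10.5 CPM at P1, 1.07 and 3.82 CPM at P6 and 0.734 and 1.18 CPM at P8. *Tubb3* was at 10.2 and 11.1 CPM at P1, 17.5 and 16.9 CPM at P6 and 16.3 and 23.8 CPM at P8. Of 6 endothelial markers listed, 3 were in the counts. They summed to 83.7 to 86.2 and 6.66 to 7.89 CPM at P6 and to 142 to 157 and 18.0 to 20.0 CPM at P8. At P1 the sums were 17.8 to 19.8 and 30.5 to 33.9 CPM. The 9 markers of the oligodendrocyte lineage in the counts, of 10 listed, summed to between 174 and 267 CPM in all groups. Of 6 mural cell markers listed, 4 were in the counts, led by *Acta2*. Under the label WT they summed to between 1725 and 1820 CPM at P1 and P8 and between 2200 and 2260 CPM at P6. Under the label cKO they summed to between 2226 and 2897 CPM. The single markers split. At P6 *Acta2* (2044 to 2584 CPM) and *Myh11* (2.89 to 11.3 CPM) were higher under the label cKO. *Pdgfrb* (180 to 120 CPM) and *Rgs5* (2.66 to 1.31 CPM) were lower there, and *Pdgfrb* was lower at P8 too (220 to 162 CPM). The 6 proliferation markers summed to 523 to 532 and 399 to 415 CPM at P1, 549 to 597 and 379 to 404 CPM at P6, and 395 to 398 and 348 to 355 CPM at P8.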
